A study of Mus musculus with 8 samples.

Results

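The genes described here are 10 feedback brakes on the extracellular signal-regulated kinase (ERK) pathway, namely the dual-specificity phosphatases Dusp1, Dusp2, Dusp4, Dusp5 and Dusp6, the Sprouty-related proteins Spred1 and Spred2, and the Sprouty genes Spry1, Spry2 and Spry4. They were chosen by name, among 37018 genes and transcripts on the array, and each is represented by 1 probe. The cells were macrophages from the peritoneum, taken from LysMCre-fur(fl/fl) mice (KO), in which Cre recombinase driven from the lysozyme M gene deletes the floxed Furin gene in myeloid cells, and from WT littermates, all on a C57BL/6 background. They received no stimulus or lipopolysaccharide (LPS), a bacterial cell wall component sensed by Toll-like receptor 4, for 1, 4 or 24 h. Each of the 4 time points had 2 biological replicates of each genotype, and each of the 8 two-colour arrays carried KO and WT RNA of 1 time point and 1 replicate. WT RNA was in Cy3 and KO RNA in Cy5 on the arrays of replicate 1, and the dyes were exchanged for replicate 2, so that replicate and dye cannot be told apart. The age of the mice used for the arrays and the Cre and floxed alleles of the WT littermates are not given in the sources used here.

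LPS and growth factors activate ERK through a chain of kinases, and ERK in turn induces genes whose products switch the pathway off. Dual-specificity phosphatases (DUSPs) remove phosphate from the activation loop of mitogen-activated protein kinases. DUSP1, DUSP2, DUSP4 and DUSP5 act in the nucleus, where DUSP1 acts mainly on p38 and JNK and DUSP5 on ERK, and DUSP6 is a cytoplasmic phosphatase of ERK. SPRED proteins bring neurofibromin to the membrane to switch RAS off, and Sprouty proteins interfere with the steps between receptor tyrosine kinases and RAF. In macrophages, DUSP1 is known as a brake on cytokine production after LPS.

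The proportion of gene spots well above background, as called by the scanner software, was 43.8% to 51.3% per channel. Of the 10 genes, 6 (Dusp1, Dusp2, Dusp4, Dusp5, Dusp6 and Spred1) were well above background in all 16 channels. Spred2 was so in 14 channels and Spry1 in 12, and Spry2 and Spry4 were not well above background in any channel and are given no fold change. No channel was saturated for any of them. Furin, the targeted gene, had log2 KO/WT ratios of -0.59 and -0.85 in unstimulated macrophages, -0.56 and -0.55 at 1 h, ending with -0.59 and -0.69 at 24 h. At 4 h its ratios were 0.00023 and 0.33, so Furin was not lower in the libraries labelled KO at 4 h, and every comparison that uses the 4 h arrays carries this limit, the LPS effects and steps included. Lyz2, the gene that carries Cre, was lower in the same 2 libraries (-1.04 and -1.13), as at the other times. Of the macrophage markers, 9 of 9 measured (Csf1r and Adgre1 among them) were well above background in all channels, and 7 of 7 B cell markers and 7 of 8 mast cell markers (all but Ms4a2) were as well. In bulk RNA, fewer cells of a type and less RNA per cell cannot be told apart.

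LPS raised most of these genes within 1 h, with 3 kinds of time course. Dusp1, Dusp2, Dusp5 and Spry1 were highest at 1 h or 4 h and lower at 24 h, Spred1 was highest at 4 h, and Dusp4 and Dusp6 were highest at 24 h. Among WT samples 7 of the 10 genes rose at 1 h (adjusted p under 0.05, limma separate-channel analysis), where 8.50% of all genes and transcripts changed and 3.35% rose, and none fell, where 5.15% of all fell. At 4 h 6 of 10 rose (34.7% of all changed, 15.5% rising and 19.2% falling), and at 24 h 7 of 10 rose (30.4% of all changed, 13.5% rising and 16.8% falling). In KO macrophages 6 rose and 1 fell at 1 h (7.53% of all changed), 6 rose and 1 fell at 4 h (36.0%), and 5 rose at 24 h (28.6%). The median log2 change over the 10 genes in WT, with the Sprouty genes below background included, was 1.59, 1.26 and 0.94 after 1, 4 and 24 h, beside -0.02, -0.00063 and -0.01 over everything tested.

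Dusp1, the phosphatase with a preference for p38 and JNK, had the largest fitted rise at 1 h in WT among the 6 genes well above background in all channels. Its log2 intensity in WT was 9.41 and 9.53 unstimulated, 13.32 and 13.13 at 1 h, 12.39 and 11.61 at 4 h, ending with 11.08 and 10.85 at 24 h (replicates 1 and 2). In KO it was 10.36 and 9.75 unstimulated, 13.35 and 13.41 at 1 h, 12.17 and 12.59 at 4 h, ending with 11.48 and 11.27 at 24 h. In both genotypes every stimulated sample lay above both unstimulated samples of that genotype. The rise at 1 h was 13.5-fold in WT (log2 3.76, SE 0.24, adjusted p = 2.49e-07) and 10.0-fold in KO (log2 3.33, SE 0.24, adjusted p = 1.02e-06). From 1 h to 4 h the WT level fell by 57.3% (adjusted p = 0.00132) and the KO level fell by 49.9% (adjusted p = 0.00558). From 4 h to 24 h the WT level fell by 51.1% and the KO level fell by 50.2% (adjusted p = 0.00476 and 0.00555), but both stayed above the unstimulated level by log2 1.50 and 1.32 (SE 0.24 each, adjusted p = 0.000265 and 0.000773). Without replicate 2 at 24 h the last fall was no longer past the threshold in either genotype (adjusted p = 0.0591 in WT and 0.0615 in KO).

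Dusp2, a nuclear phosphatase known for its induction in activated leukocytes, rose as early, and its level at 24 h was not past the threshold against unstimulated cells. Its WT intensities on the log2 scale were 11.96 and 12.88 unstimulated, 15.42 and 15.98 at 1 h, 15.56 and 15.07 at 4 h, ending with 12.88 and 12.50 at 24 h. The KO intensities were 12.47 and 12.51, 15.84 and 15.78, 15.72 and 15.71, and 13.03 and 12.95 at the same times. All samples at 1 h and 4 h lay above all unstimulated and 24 h samples of either genotype. It rose 9.67-fold at 1 h in WT (log2 3.27, SE 0.26, adjusted p = 1.70e-06) and 10.0-fold in KO (log2 3.33, SE 0.26, adjusted p = 1.75e-06). The fall from 4 h to 24 h was log2 -2.62 in WT and -2.72 in KO (SE 0.26 each, adjusted p = 2.87e-06 and 1.95e-06). At 24 h the change from unstimulated was 0.27 in WT and 0.50 in KO, neither past the threshold (adjusted p = 0.532 and 0.186). Without unstimulated replicate 2 the WT value at 24 h was 0.73 (adjusted p = 0.0492), and without unstimulated replicate 1 it was -0.19.

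Dusp5, the nuclear ERK phosphatase, had the same order of levels on a smaller scale. Its log2 intensity in WT was 6.51 and 7.13 unstimulated, 8.21 and 8.65 at 1 h, 8.11 and 7.90 at 4 h, ending with 7.50 and 7.44 at 24 h. In KO the values were 6.66 and 7.24, 8.35 and 8.50, 8.47 and 8.22, and 7.67 and 7.40. In each genotype the 1 h and 4 h samples did not overlap the unstimulated ones. The rise at 1 h was 3.04-fold in WT (log2 1.61, SE 0.21, adjusted p = 0.000216) and 2.79-fold in KO (log2 1.48, SE 0.21, adjusted p = 0.000530). At 24 h WT was still 1.57-fold above unstimulated (adjusted p = 0.0321) and KO 1.50-fold (adjusted p = 0.0534, and 0.0294 with the replicate as a block and a dye term). The WT value at 24 h lost its call without either 24 h array (adjusted p = 0.138 and 0.105) and without unstimulated replicate 1, where it was 0.34 on the log2 scale. In the KO, the call at 24 h was gained without unstimulated replicate 2 (log2 0.88, adjusted p = 0.00510).

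The 3 phosphatase genes whose mean level was highest at 1 h are shown with the 250 bases before their annotated start, together with Dusp6, which did not rise at 1 h (RefSeq, GRCm38.p6, written along the gene). The windows are chr17:26508473-26508722, minus strand for Dusp1, chr2:127335909-127336158, plus strand for Dusp2, chr19:53528895-53529144, plus strand for Dusp5 and chr10:99262981-99263230, plus strand for Dusp6. Capitals mark matches, on either strand, to 6 motifs of factors that signalling kinases are known to act on, which are TGACGTCA (CRE), TGANTCA (AP-1), GCGNGGGCG (EGR), CCGGAAG (ETS), the NF-kB consensus and the CArG box of serum response factor.
Dusp1: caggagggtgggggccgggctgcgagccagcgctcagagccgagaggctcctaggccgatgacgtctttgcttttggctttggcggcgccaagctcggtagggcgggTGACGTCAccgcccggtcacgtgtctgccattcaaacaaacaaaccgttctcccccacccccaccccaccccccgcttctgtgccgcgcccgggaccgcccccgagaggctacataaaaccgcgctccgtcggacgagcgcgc
Dusp2: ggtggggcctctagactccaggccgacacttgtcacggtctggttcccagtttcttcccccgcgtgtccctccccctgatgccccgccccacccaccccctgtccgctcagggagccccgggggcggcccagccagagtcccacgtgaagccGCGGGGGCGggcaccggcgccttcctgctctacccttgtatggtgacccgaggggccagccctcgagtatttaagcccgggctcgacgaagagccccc
Dusp5: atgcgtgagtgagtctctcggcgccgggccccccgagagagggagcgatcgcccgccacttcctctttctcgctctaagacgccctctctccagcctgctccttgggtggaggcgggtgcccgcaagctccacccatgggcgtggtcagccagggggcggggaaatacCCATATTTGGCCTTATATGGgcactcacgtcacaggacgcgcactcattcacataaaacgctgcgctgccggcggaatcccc
Dusp6: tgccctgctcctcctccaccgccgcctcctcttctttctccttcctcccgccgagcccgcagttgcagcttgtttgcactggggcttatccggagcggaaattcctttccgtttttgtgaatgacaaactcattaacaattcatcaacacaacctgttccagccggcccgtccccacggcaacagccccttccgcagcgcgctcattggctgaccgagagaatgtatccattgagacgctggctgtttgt
The Dusp1 window held 1 CRE, at bases 143 to 136 before the start, and 1.55% of all 32851 windows of this length held it. In the Dusp2 window there was 1 EGR motif, at bases 98 to 90, which 4.70% of all windows held. Dusp5 had 2 CArG boxes side by side, at bases 82 to 73 and 72 to 63, where 1.47% of windows had any. None of the 6 motifs was in the Dusp6 window, nor in those of Spred1, Spred2 and Spry1, which rose at 1 h in WT, or of Spry2. Among these 8 genes no window held AP-1 (6.75% of all), the NF-kB consensus (7.25%) or ETS (6.91%). Which matches appear depends on the form of a motif, and these 6 were settled after 12 forms had been looked at in these windows. A looser NF-kB form with 4 free bases was in 6 of the 8 windows and in 17.6% of all, a 5-base ETS form in 5 of 8 and 64.1%, a CArG form with 6 free bases in 7 of 8 and 67.1%, and the first 5 bases of the CRE in 3 of 8 and 17.8%. Overlapping matches were counted, and the AP-1 and CRE letters cannot match the same bases. A match describes the letters only. Dusp4 and Spry4 were not searched.

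**Figure D1:**
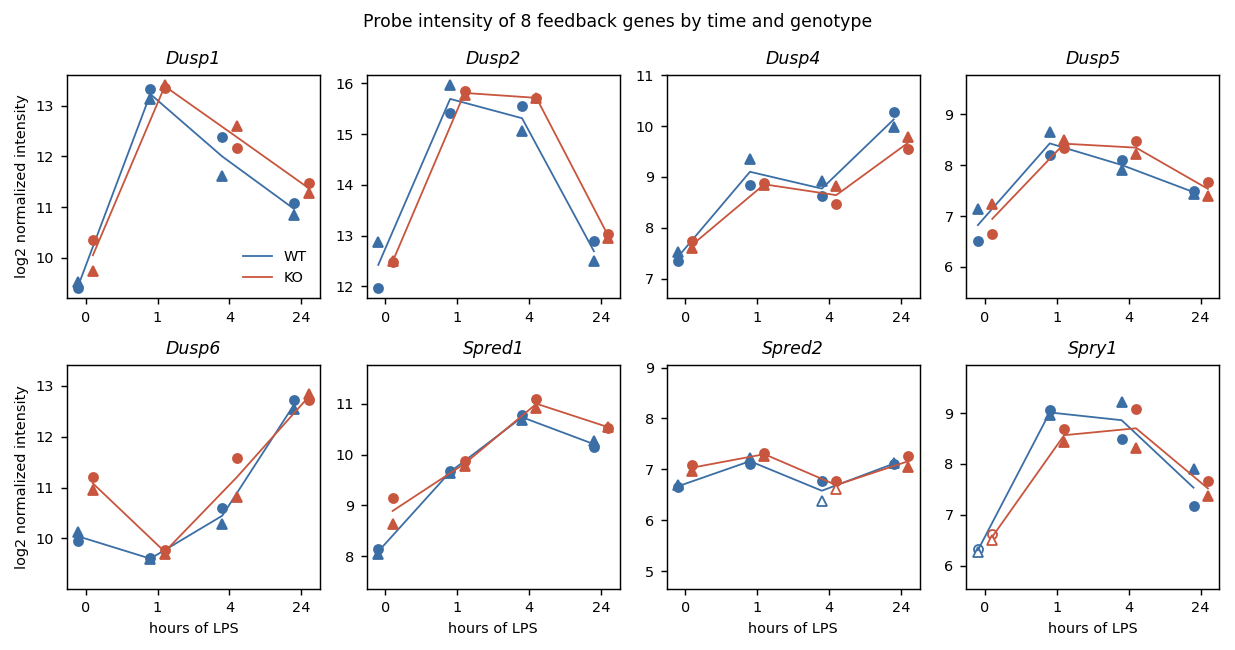
Log2 normalized intensity (vertical axis, its range differing between panels) of 8 genes at 0, 1, 4 and 24 h of LPS (horizontal axis, not to scale) in WT (blue) and KO (red), with circles for replicate 1, triangles for replicate 2, lines through the means of 2 and open symbols for channels not well above background. Dusp1 and Dusp2 peak at 1 h, Spred1 at 4 h and Dusp6 at 24 h, and unstimulated KO samples lie above WT for Dusp6 and Spred1.

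Dusp4, the nuclear phosphatase that is a close relative of Dusp1, rose early and was higher still at 24 h. In WT its log2 intensity was 7.34 and 7.52 unstimulated, 8.84 and 9.36 at 1 h, 8.61 and 8.92 at 4 h, ending with 10.28 and 9.98 at 24 h. KO samples had 7.74 and 7.60, 8.87 and 8.84, 8.46 and 8.82, and 9.56 and 9.78. In each genotype the 24 h samples lay above all others and the unstimulated samples below all others. The WT rise was 3.18-fold at 1 h (adjusted p = 3.57e-05) and 6.49-fold at 24 h (log2 2.70, SE 0.18, adjusted p = 6.42e-08). In KO it was 2.27-fold at 1 h (adjusted p = 0.000847) and 4.01-fold at 24 h (log2 2.00, SE 0.18, adjusted p = 1.22e-06). The step from 4 h to 24 h was 1.36 in WT and 1.03 in KO on the log2 scale (SE 0.18 each, adjusted p = 4.57e-05 and 0.000472).

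Dusp6, the cytoplasmic ERK phosphatase, was the gene whose early course differed most from the others, since it did not rise at 1 h. WT intensities on the log2 scale were 9.95 and 10.13 unstimulated, 9.62 and 9.59 at 1 h, 10.60 and 10.29 at 4 h, ending with 12.72 and 12.55 at 24 h. KO intensities were 11.21 and 10.95 unstimulated, 9.78 and 9.70 at 1 h, 11.58 and 10.82 at 4 h, ending with 12.72 and 12.84 at 24 h. The 1 h samples were the lowest in both genotypes and the 24 h samples the highest. At 1 h the KO level fell by 60.6% from unstimulated (log2 -1.34, SE 0.19, adjusted p = 0.000487), where the WT change was -0.44 (SE 0.19, adjusted p = 0.236). Without either or both of the 4 h arrays, which changes the estimate of the spread only, the WT fall at 1 h was past the threshold (adjusted p = 0.0447). At 4 h the change from unstimulated was 0.41 in WT and 0.12 in KO (adjusted p = 0.128 and 0.721). Without LPS 4 h replicate 2 these were 0.56 and 0.50 (adjusted p = 0.0110 and 0.0207), and without LPS 4 h replicate 1 the KO value was -0.26. By 24 h Dusp6 had risen 6.04-fold in WT (log2 2.59, SE 0.19, adjusted p = 1.64e-07) and 3.25-fold in KO (log2 1.70, SE 0.19, adjusted p = 1.00e-05). The steps from 1 h to 4 h and from 4 h to 24 h were 0.84 and 2.19 in WT and 1.46 and 1.58 in KO, all past the threshold.

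Spred1 rose at every time point in both genotypes and was highest at 4 h. The WT log2 intensity was 8.14 and 8.05 unstimulated, 9.68 and 9.63 at 1 h, 10.78 and 10.69 at 4 h, ending with 10.15 and 10.26 at 24 h. In KO it was 9.14 and 8.64, 9.87 and 9.77, 11.08 and 10.91, and 10.53 and 10.54. No 2 time points overlapped within a genotype. At 4 h the gene was 6.23-fold above unstimulated in WT (log2 2.64, SE 0.13, adjusted p = 2.91e-09) and 4.31-fold in KO (log2 2.11, SE 0.13, adjusted p = 2.53e-08). At 1 h the changes were 1.56 and 0.93, and at 24 h 2.11 and 1.65. The fall from 4 h to 24 h, -0.53 in WT (adjusted p = 0.00764) and -0.46 in KO (adjusted p = 0.0170), lost its call in WT without replicate 1 at either time (adjusted p = 0.0785 and 0.0596), and in KO without either 24 h array or replicate 1 at 4 h (0.0889, 0.0823 and 0.142).

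Spred2, the other SPRED gene on the array with signal, moved little. Its WT log2 intensities were 6.65 and 6.69 unstimulated, 7.10 and 7.22 at 1 h, 6.78 and 6.38 at 4 h, ending with 7.11 and 7.12 at 24 h. KO values were 7.09 and 6.97, 7.33 and 7.27, 6.77 and 6.61, and 7.27 and 7.05, and neither channel of replicate 2 at 4 h was well above background, so the 4 h values rest on 1 measured sample a genotype. WT rose 1.41-fold at 1 h (adjusted p = 0.0255) and 1.36-fold at 24 h (adjusted p = 0.0145). The KO changes at those times were 0.26 and 0.12 on the log2 scale (adjusted p = 0.294 and 0.566). The KO call at 4 h (-0.34, adjusted p = 0.0483) was lost in 7 of the 8 fits without 1 array, and the WT calls at 1 h and 24 h without any of the unstimulated arrays or of the arrays at that time (adjusted p from 0.0600 to 0.215).

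Spry1 was the Sprouty gene with a measurable level, and only after LPS. Unstimulated samples read 6.33 and 6.27 in WT and 6.63 and 6.51 in KO and were not well above background. After LPS the WT log2 intensities were 9.06 and 8.96 at 1 h, 8.49 and 9.23 at 4 h, ending with 7.16 and 7.90 at 24 h, and the KO ones were 8.69 and 8.44, 9.08 and 8.32, and 7.67 and 7.37. Every stimulated sample lay above the unstimulated ones. Bounds were set, after loess and Aquantile normalization, against the lowest signal that counts as well above background, or the probe's own where that was higher. Spry1 was at least 6.19-fold, 5.67-fold and 2.27-fold higher in WT after 1, 4 and 24 h. In KO the probe's own reading was the higher, and the rises from it were 3.97-fold, 4.35-fold and 1.91-fold. The limma fit used the unstimulated readings themselves and did not test the bounds. Its adjusted p-values were 3.22e-05, 6.56e-06 and 0.00445 in WT and 0.000570, 3.74e-05 and 0.0228 in KO. The KO call at 24 h was lost without replicate 1 at 24 h or without either unstimulated array (adjusted p = 0.106, 0.0856 and 0.130), and the WT call at 24 h without replicate 2 at 24 h (0.0753). Spry2 had intensities from 6.19 to 6.71 and Spry4 from 6.02 to 6.55 over the 16 channels, all of them not well above background.

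**Figure D2:**
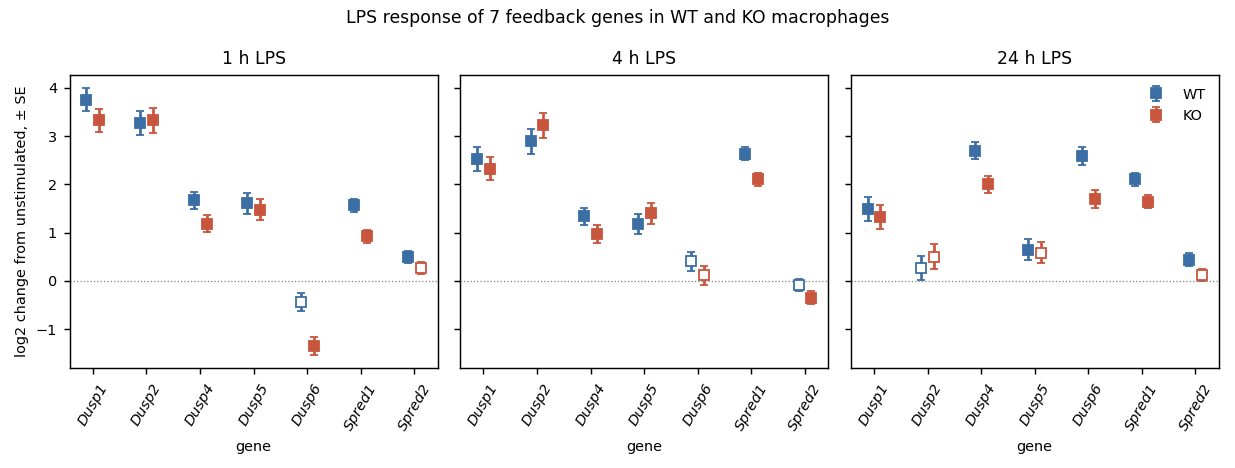
Log2 change from unstimulated (vertical axis, bars are SE) of 7 genes (horizontal axis) at 1, 4 and 24 h of LPS in WT (blue) and KO (red), with filled squares for an adjusted p under 0.05. The change of Dusp6 at 1 h is -0.44 in WT and -1.34 in KO, and at 24 h 2.59 and 1.70, while Dusp2 is near its starting level at 24 h in both.

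Between successive LPS times 4 of the 10 genes changed from 1 h to 4 h in each genotype, Dusp1 and Spred2 downward and Dusp6 and Spred1 upward (29.6% of all changed in WT and 31.8% in KO). From 4 h to 24 h 7 changed in WT (29.7% of all) and 8 in KO (30.7%), with Dusp4, Dusp6 and Spred2 going up and Dusp1, Dusp2, Spred1 and Spry1 down in both. Dusp5 went down in KO (-0.81, adjusted p = 0.00893), and in WT its change was -0.53 (adjusted p = 0.0788, and 0.0458 with the replicate block). A direct test of 24 h against 1 h was not made. Markers of other cells moved over the time course too. The summed intensity of the B cell list was 119221 to 135995 in unstimulated WT, 61560 to 71370 at 4 h and 82783 to 83707 at 24 h. That of the mast cell list was 8932 to 12438, 33897 to 47473 and 12829 to 13686 at these times. The macrophage list summed to 341547 to 370605 in unstimulated WT and 190809 to 227461 at 24 h. The neutrophil list, of which 3 of 7 (S100a8, Elane and Camp) were well above background, summed to 4598 to 4767 in unstimulated WT and 23735 to 60956 at 24 h, when 2 of the 7 had risen and 1 had fallen. In KO it was 3780 to 4538 and 38578 to 65800. The dendritic cell list summed to 9844 to 10806 in unstimulated WT and 14485 to 20206 at 4 h. At 24 h it summed to 3460 to 3504, with 1 of 5 rising and 2 falling. The part of these cells in the LPS results, the 24 h levels of Dusp4 and Dusp6 included, was not tested.

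Of 18 genes known to be induced through ERK, 14 rose and none fell at 1 h in WT, 13 rose and 3 fell at 4 h, and 7 rose and 4 fell at 24 h, with median log2 changes of 1.90, 1.85 and 0.37. At 1 h Phlda1 rose by 4.90, Nr4a1 by 4.44 and the transcription factor Egr1 by 4.40 on the log2 scale (SE 0.24, 0.18 and 0.15). In KO the counts were 14 rising and 2 falling, 13 and 4, and 6 and 6. Of 21 genes of the ERK cascade itself (from the receptor to ERK and its targets), 3 rose and 2 fell at 1 h in WT, 3 and 11 at 4 h, and 3 and 9 at 24 h. Among them Map3k8, the kinase that carries Toll-like receptor signals to ERK, rose by 1.31 at 1 h and 2.31 at 4 h (SE 0.19 each), and Mapk3, which encodes ERK1, was at -1.54 at 4 h (SE 0.13). Of 12 other dual-specificity phosphatases 3 rose and 2 fell at 1 h in WT, 4 and 3 at 4 h, and 5 and 3 at 24 h. Dusp16, a JNK phosphatase, rose by 2.42 at 1 h and 3.93 at 4 h (SE 0.17 each), Dusp8 by 2.48 at 1 h (SE 0.16), and Dusp7, an ERK phosphatase, was at -1.35 at 1 h (SE 0.15). Of 10 other brakes on RAS and receptor signalling, Errfi1, an inhibitor of the epidermal growth factor receptor, rose by 3.18 at 1 h (SE 0.21), and 2 of 10 rose then. Of 12 genes of the p38 and JNK cascade 3 rose and none fell at 1 h, and 4 rose and 3 fell at 4 h. With the replicate block the counts in WT at 1 h were 3 rising and 5 falling for the ERK cascade, 4 and 2 for the other phosphatases, and 4 and 1 for the p38 and JNK cascade, and those of the other 2 lists were as before. The block also gave 9 rising and 4 falling ERK-induced genes in WT and 8 and 7 in KO after 24 h, 4 and 11 genes of the ERK cascade in WT after 24 h, and 4 and 4 of the p38 and JNK cascade in WT after 4 h. These counts stand beside 3.35% rising and 5.15% falling among everything tested in WT after 1 h, 15.5% and 19.2% after 4 h, and 13.5% and 16.8% after 24 h. In KO, of 36927 tested, 1138 rose and 1644 fell after 1 h, 6000 and 7276 after 4 h, and 4711 and 5860 after 24 h.

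In unstimulated macrophages Dusp6 and Spred1 had the 2 largest mean KO/WT ratios of the 7 genes measured there. The log2 KO/WT ratio of Dusp6 was 1.27 on the array of replicate 1 and 0.82 on that of replicate 2, and both KO samples lay above both WT samples. For Spred1 it was 1.00 and 0.59, again without overlap. Dusp6 was 2.06-fold higher in KO (log2 1.04, SE 0.15, adjusted p = 0.110, limma) and Spred1 1.74-fold (log2 0.80, SE 0.11, adjusted p = 0.110). Neither passed the threshold, and no gene on the array did (0% of 36947), where 4 of the 10 genes and 2126 of all had an unadjusted p under 0.05. With the replicate as a block, which is also a dye term, both passed it (adjusted p = 0.00447 and 0.00398), 2 of the 10 genes where 1.06% of all did. Spred2 had ratios of 0.45 and 0.29 and a mean of 0.37 (SE 0.11, adjusted p = 0.510), Dusp1 0.95 and 0.22, Dusp4 0.39 and 0.08, Dusp5 0.14 and 0.10, and Dusp2 0.51 and -0.38. The ratios were above 0 on both arrays for all but Dusp2 among the 7 genes measured there, beside 23.8% of everything tested. The median log2 ratio of the 10 genes was 0.25, beside 0.00053 over everything tested, but the 3 Sprouty genes in it were not well above background, and the middle value of the 7 measured was the 0.37 of Spred2. By the methods' t-test 2 of the 10 genes had an unadjusted p under 0.05, as had 1707 of all, and none of either passed after Benjamini-Hochberg adjustment.

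After 1 h of LPS the ratios of Dusp6 (0.16 and 0.11) and Spred1 (0.19 and 0.14) were close to 0, and none of the 10 genes passed the threshold or had an unadjusted p under 0.05 (0% of all passed, and 2018 had such a p). Spry1 had ratios of -0.37 and -0.52, Dusp4 0.03 and -0.52, Dusp1 0.03 and 0.28, Dusp2 0.43 and -0.19, Dusp5 0.14 and -0.15, and Spred2 0.23 and 0.05. At 4 h the Dusp6 ratio was 0.98 and 0.53, a mean of 0.75 (SE 0.15, adjusted p = 0.345, and 0.0256 with the replicate block, where 0.568% of all passed). None of the 10 genes passed without the block at 4 h, beside 0.00812% of all, and 3 of the 10 and 1594 of all had an unadjusted p under 0.05. Ratios at 4 h were 0.37 and 0.31 for Dusp5, 0.30 and 0.23 for Spred1, 0.16 and 0.64 for Dusp2, and -0.16 and -0.10 for Dusp4, while Dusp1 (-0.21 and 0.98) and Spry1 (0.59 and -0.91) had opposite signs on the 2 arrays, as did Spred2 (-0.01 and 0.23). At 24 h none of the 10 genes passed, beside 0.0244% of all, and 2 of them and 1263 of all had an unadjusted p under 0.05. The 24 h ratios were -0.72 and -0.19 for Dusp4, 0.38 and 0.28 for Spred1, 0.40 and 0.43 for Dusp1, 0.15 and 0.46 for Dusp2, 0.0013 and 0.30 for Dusp6, 0.17 and -0.05 for Dusp5, 0.16 and -0.07 for Spred2, and 0.51 and -0.54 for Spry1.

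**Figure D3:**
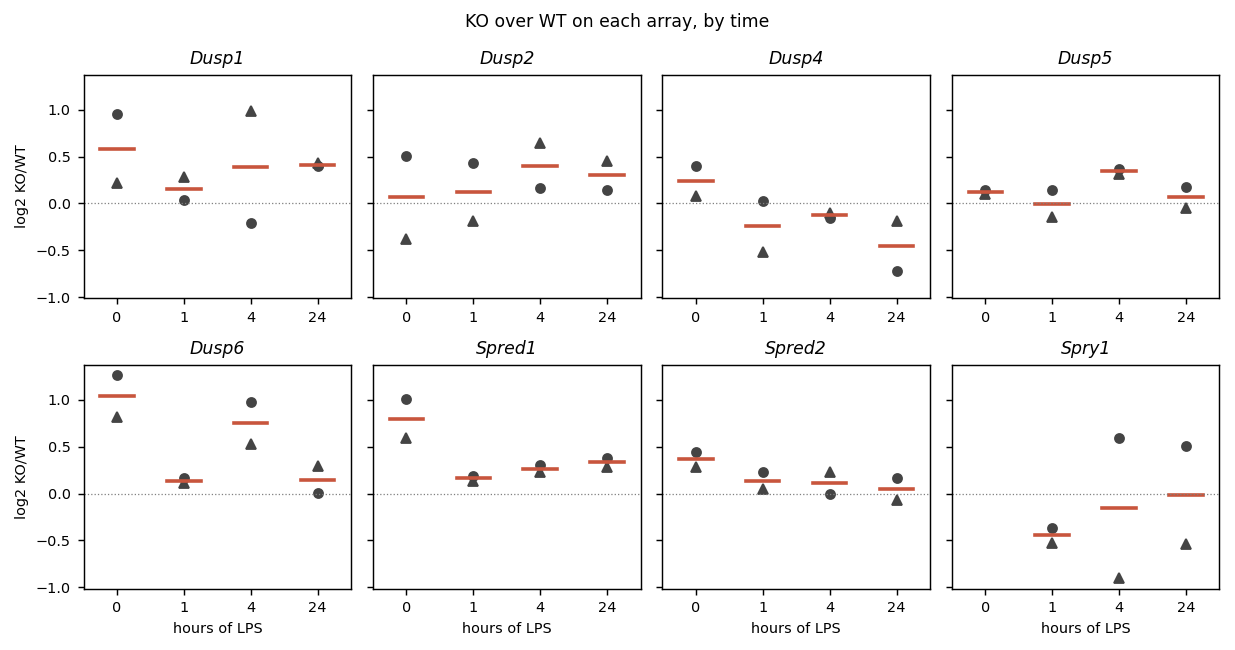
Log2 KO/WT ratio (vertical axis) of 8 genes on each array at 0, 1, 4 and 24 h of LPS (horizontal axis, not to scale), with circles for replicate 1, triangles for replicate 2 and red bars for the mean of 2. Dusp6 and Spred1 lie above 0 on all 8 arrays, Dusp6 by only 0.0013 on 1 array at 24 h. Dusp4 lies above 0 on both unstimulated arrays and below 0 on both arrays at 4 h and at 24 h. Spry1 is not drawn at 0 h, where no channel was well above background.

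Averaged over the 4 time points, Dusp6 and Spred1 were higher in KO. Both had a ratio above 0 on all 8 arrays, though that of Dusp6 was only 0.0013 on 1 array at 24 h. The mean Dusp6 ratio was 1.04 unstimulated and 0.75 at 4 h, against 0.14 at 1 h and 0.15 at 24 h. The mean log2 ratio was 0.52 for Dusp6 (SE 0.07, 1.43-fold, adjusted p = 0.0273, and 0.00106 with the block) and 0.39 for Spred1 (SE 0.06, 1.31-fold, adjusted p = 0.0294, and 0.00102 with the block), 2 of the 10 genes where 0.563% of all genes and transcripts passed, and 6.01% with the block. The fit without the block takes the 8 arrays as independent, though same-numbered replicates deviated together. The block takes the mean difference between replicates out of the error, so its p-values do not measure the spread between the 2 biological replicates. The calls rested on the full set of arrays. With any 1 array left out, the Spred1 ratio was 0.34 to 0.44 and its adjusted p 0.0510 to 0.110, and that of Dusp6 was 0.46 to 0.58, past the threshold only without LPS 24 h replicate 1 (adjusted p = 0.0447, and 0.0534 to 0.115 otherwise). Without both 4 h arrays the values were 0.44 and 0.43 (adjusted p = 0.104 and 0.0830, and 0.00778 and 0.00357 with the block), and neither was called without the block. The means of the other measured genes were 0.38 for Dusp1 (adjusted p = 0.289), 0.22 for Dusp2 (0.569), 0.17 for Spred2 (0.275), 0.13 for Dusp5 (0.403) and -0.15 for Dusp4 (0.615). The median log2 KO/WT ratio of the 8 mast cell markers was 0.39 unstimulated and 0.47 over the time points, 0 of 8 passed the threshold and 6 of 8 did with the block, and their summed intensity was 8932 to 12438 in unstimulated WT and 11321 to 16216 in KO. B cell markers had a median of 0.21 unstimulated and sums of 119221 to 135995 in WT and 113806 to 160276 in KO. The part of these cells in the ratios of Dusp6 and Spred1 was not tested.

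Between KO and WT the LPS response of Dusp6 differed on the log2 scale by -0.91 (1 h), -0.29 (4 h) and -0.89 (24 h), each with an SE of 0.21, and that of Spred1 by -0.64, -0.53 and -0.46 (SE 0.16 each). Dusp4 differed by -0.49, -0.37 and -0.70 (SE 0.23 each). Without 1 array the Dusp6 differences ranged from -1.13 to -0.68, -0.51 to -0.066 and -1.12 to -0.67, those of Spred1 from -0.84 to -0.43, -0.74 to -0.33 and -0.67 to -0.26, and those of Dusp4 from -0.76 to -0.21, -0.52 to -0.21 and -0.96 to -0.43. None of the 10 genes passed the threshold in any of these 3 tests, where 0% of all did in each (limma). Unadjusted p-values under 0.05 were found for 3, 1 and 3 of the 10 genes (at 1 h Spry2, not well above background, beside Dusp6 and Spred1) and for 516, 1073 and 1230 of all. The smallest adjusted p for Dusp6 was 0.687, at 24 h, and 0.0988 with the block. A difference in response was therefore not shown for any of them, and the 95% interval for Dusp6 at 1 h ran from -1.38 to -0.44.

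Genes known to be induced by ERK had a median log2 KO/WT ratio above 0 in unstimulated macrophages. It was 0.34 over 18 genes, of which none passed the threshold, and 7 did with the block. Cyclin D1 (Ccnd1) had ratios of 1.47 and 1.33 (mean 1.40, SE 0.15, adjusted p = 0.0580), Phlda1 1.23 and 1.34, and Egr1 1.07 and 0.81. Over the time points 4 of 18 were higher in KO, namely Ccnd1 by 0.76, Phlda1 by 0.64, Hbegf, which encodes a ligand of the epidermal growth factor receptor, by 0.40, and Egr1 by 0.39 (adjusted p = 0.0121, 0.0465, 0.0228 and 0.0480). With the block 8 were higher, adding Fos, Fosl1, Myc and Etv5, and 1 was lower, Egr2 (-0.33, adjusted p = 0.0379 with the block). Of everything tested 0.563% passed over the time points and 6.01% with the block, and in unstimulated macrophages 0% and 1.06%. The ERK cascade had a median of -0.05 unstimulated over 21 genes and 1 call over the time points, Csf1r, the receptor of macrophage colony-stimulating factor (-0.41, adjusted p = 0.0183). Among the 12 other dual-specificity phosphatases the median was 0.08, Dusp16 had the largest unstimulated mean (0.54, adjusted p = 0.440), and Dusp7 was higher in KO over the time points (0.44, adjusted p = 0.0334). Medians were 0.02 for the 10 other brakes, where Errfi1 was at 0.45 (adjusted p = 0.917), and 0.03 for the 12 genes of the p38 and JNK cascade. Over the time points none of these 2 lists passed, and with the block Errfi1 was higher (0.44, adjusted p = 0.0108), Lrig1 lower (-0.27, adjusted p = 0.0192) and 1 gene of the p38 and JNK cascade lower, while the ERK cascade then had 1 gene higher and 3 lower. Not well above background in any channel were 4 of the other phosphatases (Dusp9, Dusp18, Dusp19 and Dusp26) and Spry3 of the other brakes, and Spred3 and Egr3 were so in 1 channel each. They are included in the counts and medians.

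**Figure D4:**
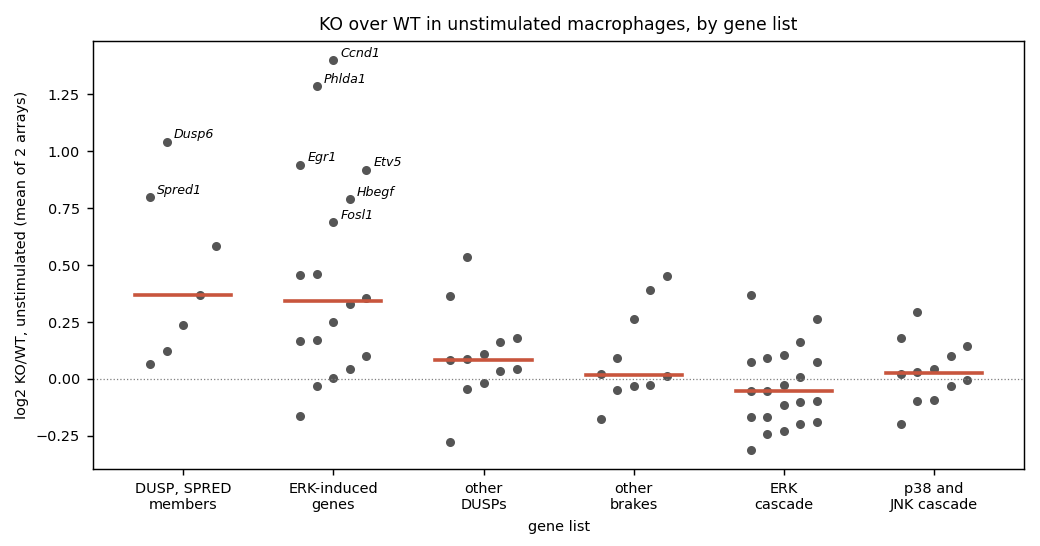
Mean log2 KO/WT ratio of 2 arrays in unstimulated macrophages (vertical axis) for the 7 DUSP and SPRED genes with signal and for the genes of 5 other lists (horizontal axis), with a point for each gene, a red bar for the median and names for ratios above 0.6. Dusp6 and Spred1 stand with Ccnd1, Phlda1, Egr1, Etv5, Hbegf and Fosl1, and the ERK cascade is spread around 0.

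Dusp6 lies on chromosome 10, as does Lyz2, the lysozyme M gene that carries the Cre insertion, and none of the other 9 genes is on that chromosome. Lyz2 was lower in the libraries labelled KO on all 8 arrays, with log2 ratios from -1.85 to -0.74. Of 207 annotated genes between Dusp6 and Lyz2, 73 averaged 6 or more on the log2 scale and were tested, well above background or not. In the unstimulated state these 73 had a median log2 ratio of -0.00080 (range -0.37 to 1.29). How many of them were well above background is not given, so the median may rest on dim probes. Phlda1, one of the ERK-induced genes above, was the highest of these 73 and the only one above Dusp6. Osbpl8 (0.40) and Nap1l1 (0.30) came next. Over the time points 2 of the 73 passed the threshold, Phlda1 and Nts, beside 0.563% of everything tested.

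The genes whose intensity followed each brake most closely over the 16 channels were found by Pearson's r among named genes whose log2 intensity averaged 8 or more. They were Ckap5 (r = 0.97) and the cyclin gene Ccnd3 (0.96) for Dusp6, Ifi211 (0.98) and the phosphatase Dusp16 (0.97) for Spred1, and Kdm6b (0.98), a histone demethylase, and Ccrl2 (0.98) for Dusp2. For Dusp1 they were Gm6377 (0.98) and Sde2 (0.97), for Dusp4 Cacna1s (0.96) and Hspa13 (0.94), and for Dusp5 the transcription factor Ets2 (0.95) and Coq10b (0.95). Spry1 was closest to Slc25a25 (0.98) and Zc3h12c (0.98), and Spred2 to Emd (0.86) and Arid3b (0.86). The channels share arrays and time points, and these values describe likeness only.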

How the data were processed

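RNA of KO and WT peritoneal macrophages was hybridized to 8 Agilent 2-colour arrays of 62976 spots on 1 slide. The authors scanned the arrays and extracted them with Agilent Feature Extraction 10.7.3, and the deposited scanner files hold intensities per spot and channel, not normalized between arrays. In the deposited series table the values are Cy5/Cy3 log2 ratios, normalized by the authors with loess and quantile methods in limma, and it served as an alternative. Groups were taken from the sample titles, since the growth protocol in the labels gives 4 h of LPS for every sample.

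For this report, limma 3.58.1 (R 4.3.3) was run on the median pixel intensities, with normexp background correction (offset 50), loess within arrays and quantile normalization between arrays. Control and outlier spots were left out. Of 55681 gene probes 27509 were named through RefSeq (20887 genes), and the brightest probe stood for a gene. Genes and transcripts averaging 6 or more on the log2 scale were tested, 36947 for KO/WT ratios (1 coefficient per time point, 4 residual degrees of freedom) and 36927 for LPS effects, the latter with separate-channel analysis (statmod 1.5.0) at a within-spot correlation of 0.116. The Benjamini-Hochberg adjustment covered everything tested, at a threshold of 0.05. Both fits were also run on simulated data, with an outcome that is not reported here. The number of arrays, 2 per time point, limits the precision.

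Same-numbered replicates, which shared their dye order, deviated together. Replicate 1 minus replicate 2 of the log2 ratio correlated across genes between time points (r from 0.475 to 0.679, 6 pairs). This difference also holds the exchange of dyes, so replicate and dye cannot be told apart in it. Values with the replicate as a block are therefore given where they change a call of the 10 genes or a list count. For LPS effects and steps, the fit with the block also had a separate dye term. Alternatives were the background correction, normalization, signal, filter, probe rule, the block, the deposited ratios, the methods' t-test and leaving out each array. Leaving out both 4 h arrays was added after seeing the data. The slide could not be a block. The genes and lists were chosen with earlier results of these data known. The motif forms were settled after matches to 12 forms had been seen, and the NF-kB form was changed last. Named besides the 10 genes were Furin, Lyz2, up to 5 genes of each list past the threshold by size (for KO against WT with none, up to 3 with the same sign on both arrays, of which some are not reported here), the 2 genes most like each member, and up to 3 genes between Dusp6 and Lyz2. Array coordinates are not printed, since the array annotation and the RefSeq table use different genome builds.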

Additional observations from a re-analysis of the deposited data

Results flagged for a closer look

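Dusp4 was noted because its KO/WT ratios in unstimulated macrophages and at 4 h and 24 h had opposite signs. At 1 h the arrays differed in sign (0.03 and -0.52). It was above 0 on both unstimulated arrays (mean log2 0.24) and below 0 on both arrays at 4 h (-0.13) and at 24 h (-0.46). The change from unstimulated was -0.37 at 4 h and -0.70 at 24 h, and neither passed the threshold when the difference itself was tested with limma (unadjusted p = 0.149 and 0.0154, and 0.853 and 0.377 after adjustment with the replicate as a block). At 4 h Furin was not lower in the libraries labelled KO.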

How the results depend on the processing

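Of 118 values followed for single genes, the 62 LPS changes and 2 KO/WT means past the threshold kept their sign under every alternative run. Calls were lost in 48 of 944 values without 1 array, 1 with the processed signals and 2 without the 4 h arrays. Which values to follow singly was decided after the reversals were seen. Over all 144 values of the 8 measured genes, 35 of 2248 alternative values reversed, in 26 results, none of them past the threshold. The replicate block brought 2 of the 10 genes past the threshold in unstimulated macrophages (also 2 with the 4 h arrays left out) and 1 at 4 h, and also Dusp5 in KO at 24 h and in WT from 4 h to 24 h, and Spry4, not well above background, in some steps between LPS times, and ended no call. With the 4 h arrays left out, 0 passed in the mean over the time points. A filter at a mean log2 of 8 removes dim genes and keeps Dusp1, Dusp2, Dusp4, Dusp6 and Spred1 of the 10. It left 4 calls for WT at 1 h and at 24 h and for KO at 4 h, and 5 for KO from 4 h to 24 h. Of 13087 genes and transcripts then tested, 2871, 8636, 9684 and 8621 were called in these 4 comparisons. With 1 array left out (the lone array of that time point is assumed to vary like the others) the calls ranged from 0 to 1 for the mean over the time points, 4 to 7 for WT at 24 h and 5 to 8 for KO from 4 h to 24 h, the lowest of the last 2 both without LPS 24 h replicate 2. The KO/WT ratio of Dusp5 at 1 h, -0.0056, was 0.0058 with loess only and with loess and Aquantile, 0.0067 in the deposited ratios, and -0.15 to 0.14 without 1 array. Ratios that changed sign without 1 array ranged from -0.38 to 0.51 for unstimulated Dusp2, -0.19 to 0.43 for Dusp2 and -0.52 to 0.027 for Dusp4 at 1 h, -0.21 to 0.98 for Dusp1, -0.0065 to 0.23 for Spred2 and -0.91 to 0.59 for Spry1 at 4 h, and -0.046 to 0.17 for Dusp5, -0.071 to 0.16 for Spred2 and -0.54 to 0.51 for Spry1 at 24 h. LPS changes that did so were -0.28 to 0.11 for Spred2 in WT at 4 h, -0.19 to 0.73 for Dusp2 in WT at 24 h and -0.26 to 0.50 for Dusp6 in KO at 4 h. Over all genes and transcripts, 208 passed in the mean over the time points, against 129 with the processed signals or the mean of all probes, 1 to 61 without 1 array other than LPS 24 h replicate 1, 37 without the 4 h arrays and 2219 with the replicate block. At 24 h the 9 became 14 with another normalization or the deposited ratios, 3 with the processed signals, 4 with the mean of all probes or a filter at 8, 4 without either unstimulated array, 2 without LPS 24 h replicate 1, 0 without replicate 2 and 216 with the block, and at 4 h the 3 became 5 with another normalization, 1 with the processed signals, 0 without either 4 h array, 7 without either 24 h array and 210 with the block. Without LPS 1 h replicate 1 there were 10 at 1 h and 8 response differences at 1 h, and without either 24 h array 3 in unstimulated macrophages, each from 0. The block gave 393 in unstimulated macrophages and 213 at 1 h, from 0, 13 and 78 response differences at 4 h and 24 h, from 0, and 4274 for KO at 1 h, from 2782. Without 1 array the last count was as low as 1443, and that of WT at 1 h was 1805, from 3139. The methods' t-test called 0 at 4 h and at 24 h. The cause was not tested. Spry2, Spry4 and unstimulated Spry1 are limited by signal over background.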
